A study of Mus musculus with 24 samples.

Results

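The response to Notch stimulation was measured in cells that carried sgCbfb, in 6 QuantSeq libraries, 3 from lymphoid progenitors (LPs) kept on OP9 stroma and 3 from Phase 1 cells kept on OP9-DLL4 stroma, out of 24 libraries in the series. They were chosen by their labels alone, as the sgCbfb libraries of the first of 2 experiments, and the 3 LP and 3 Phase 1 libraries with sgControl of the same experiment served for comparison. All 4 groups come from mouse Cas9-LPs, a line established from fetal liver progenitors of mice that lacked *Ebf1* and carried Cas9 in the Rosa26 locus, grown with SCF, Flt3L and IL-7. OP9 is a bone marrow stromal line, and OP9-DLL4 carries the Notch ligand DLL4. The sgRNAs against *Cbfb*, or against luciferase as sgControl, came in a retrovirus that also marks the cell with hNGFR, and hNGFR+ CD45+ cells were sorted 5 days after transduction, so every group had the vector and Cas9. LPs after 2 days of Notch stimulation are called Phase 1 cells. The cells lack *Ebf1*, so they cannot become B cells, and the sort selected the vector, not the edited allele. The study's methods call the 3 replicates of each group biologically independent, with no more said of how they were kept apart, and the P values measure the spread between these libraries.

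Notch is a surface receptor that is cut when it meets its ligand on a neighbouring cell. The freed part enters the nucleus, joins the DNA-binding protein RBPJ and switches on targets such as *Hes1*. In a lymphoid progenitor this signal starts the T lineage: transcription factors such as TCF1 (from *Tcf7*), GATA3 and later Bcl11b come on, and the genes of the progenitor state are shut off. CBFβ is the partner that RUNX1, RUNX2 and RUNX3 need for stable DNA binding, and RUNX factors are known to be required at many steps of early T cell development. The comparison asks which parts of the LP to Phase 1 change still took place in the sgCbfb cells.

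Each library had 1363263 to 1743319 reads on genes, so that 3 reads, the limit a count of 0 allows, were worth 1.72 to 2.20 CPM (reads of a gene scaled to a common library total; the limit covers counting error only). Phase 1 sgControl replicate 3 stood apart, with a mean correlation of 0.921 with its group against 0.935 to 0.954 for the other 11 libraries, and its removal is given beside the counts that rest on it. *Cbfb* itself was at 45.8, 39 and 35.7 CPM in sgCbfb LPs and 44.1, 63.5 and 54.2 CPM in sgCbfb Phase 1 cells, and at 92.7, 91 and 75.8 and 73.4, 81.3 and 44.7 CPM in the sgControl cells of the same stages. The change between the sgCbfb stages was not called (limma, Benjamini-Hochberg adjusted P = 0.5). QuantSeq reads the 3′ end of the mRNA, which a small deletion at an upstream guide site need not remove. These levels thus do not measure how many alleles were edited. The study found the CBFβ protein specifically lost on immunoblots of sgCbfb hNGFR+ Cas9-LPs, taken earlier after transduction than the sequenced cells. It describes no such blot of Notch-stimulated cells. The share of edited cells in the libraries themselves was not tested.

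By a threshold of an adjusted P value under 0.05 in limma with Benjamini-Hochberg adjustment, a log2 ratio of group means over 1 in either direction and a mean over 10 CPM, 98 of 13239 tested genes rose (0.740%) and 60 fell (0.453%) from LPs to Phase 1 cells with sgCbfb, 1.19% in either direction. With sgControl, 218 rose (1.65%) and 231 fell (1.74%), 3.39% in either direction. The response with sgCbfb was thus called in fewer genes and in part in the same ones, by a margin that depends on the fit: with each sgRNA's 6 libraries fitted alone, 134 rose and 111 fell with sgCbfb, and 194 rose and 154 fell with sgControl. Of the 218 genes that rose with sgControl, 43 (19.7%) also rose with sgCbfb, which is 43.9% of the 98. Of the 231 that fell, 31 (13.4%) also fell with sgCbfb, which is 51.7% of the 60. No gene was called in opposite directions. Since a call in one response alone does not show a difference, the difference between the responses was tested as the interaction in the same fit, which was positive for 78 genes (0.589%) and negative for 79 (0.597%), 1.19% in either direction (32 and 30 without moderated variances). Of the 218 rising genes, 47 were not called with sgCbfb and differed by that test, and 128 were not called with sgCbfb and were not shown to differ. Of the 231 falling genes, 42 and 158 stood in these 2 classes. With sgCbfb alone, 55 genes rose and 29 fell, of which 19 and 8 differed from sgControl. Without Phase 1 sgControl replicate 3, 125 genes rose and 98 fell with sgCbfb, 52 and 46 of them shared with sgControl. In that fit 235 rose and 218 fell with sgControl, and the difference was positive for 115 genes and negative for 117. Without LP sgCbfb replicate 1, 34 fell with sgCbfb, without LP sgControl replicate 1 or Phase 1 sgControl replicate 1, 148 or 361 fell with sgControl, and without Phase 1 sgCbfb replicate 2 the difference was negative for 52 genes.

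The sizes of the changes can be set side by side, because the 2 responses have no library in common. The 218 genes that rose with sgControl had a median limma log2 fold change of 1.99 there and of 0.64 with sgCbfb, and 80.7% of them had a value above 0 with sgCbfb. The 231 that fell had medians of -1.64 and -0.59, and 81.0% had a value below 0. The choice by sgControl calls favours sgControl, and genes chosen by sgCbfb calls had the larger medians with sgCbfb. The 98 that rose with sgCbfb had medians of 1.86 there and 1.22 with sgControl, and the 60 that fell had -1.42 and -1.15. All 13239 genes had medians of -0.07 with sgControl and -0.01 with sgCbfb. Across the 8999 genes whose mean exceeded 10 CPM in any group, Pearson's r between the responses was 0.45 and Spearman's rho was 0.29, and across the 533 genes called in either response they were 0.64 and 0.64. These are correlations across genes, which share libraries within each response and are not replicates.

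**Figure D1:**
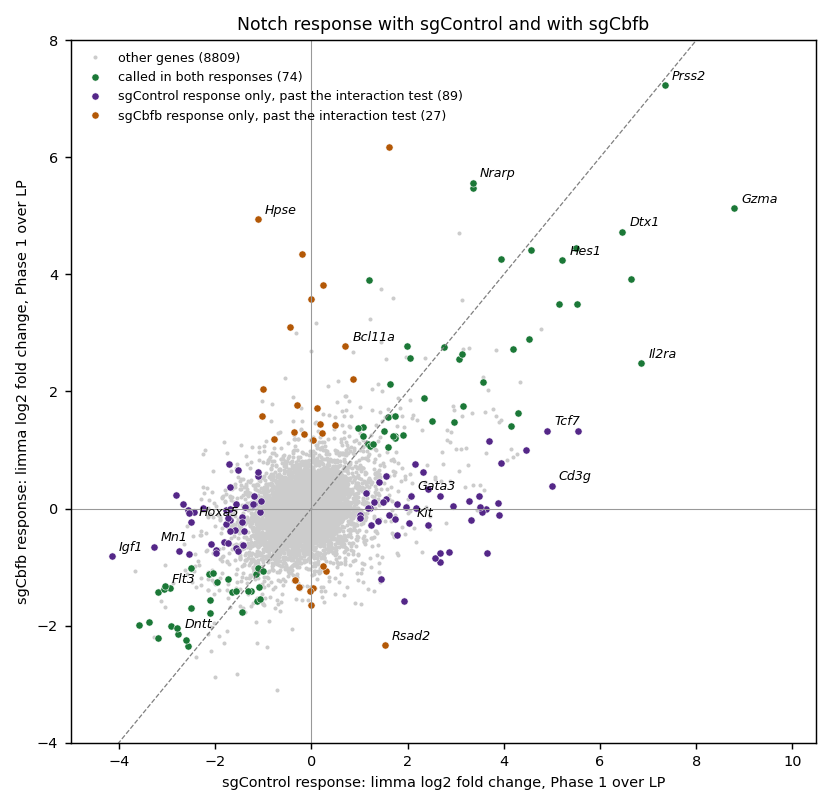
Each point is a gene with a mean over 10 CPM in at least 1 of 4 groups, placed by its limma log2 fold change from LP to Phase 1 on the log2(CPM + 1) scale, with sgControl on the horizontal and sgCbfb on the vertical axis; the dashed line marks equal change. The 74 genes called in both responses lie in the upper right and lower left. Marked apart are 89 genes called with sgControl only and 27 called with sgCbfb only, all past the interaction test. Not all of these lie near an axis: *Tcf7* lies above the horizontal axis and *Bcl11a* to the right of the vertical axis.

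Several direct targets of Notch rose in sgCbfb cells. Of 14 listed Notch targets, 11 were tested and 5 rose with sgCbfb (*Hes1*, *Hes5*, *Nrarp*, *Dtx1* and *Il2ra*), against 8 with sgControl, and none fell in either. Their median log2 fold change was 1.69 with sgCbfb and 2.98 with sgControl. The difference between the responses was called for 3 of them, *Il2ra*, *Tcf7* and *Gata3*, each with the smaller rise in sgCbfb cells. *Hey1*, *Hey2* and *Heyl* were too low to test. Of all tested genes, 0.740% rose with sgCbfb and 1.65% with sgControl. These shares, and 1.19% and 3.39% called in either direction, stand beside the later list counts as well.

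The 250 bases before the RefSeq start of *Hes5* and *Nrarp* are given here as an example of a promoter of this group with and without the letters of the RBPJ motif, TGGGAA or its reverse complement TTCCCA, which stand in capitals. Both are on the plus strand of GRCm38.p6, *Hes5* at chr4:154960673-154960922 and *Nrarp* at chr2:25180508-25180757.
Hes5: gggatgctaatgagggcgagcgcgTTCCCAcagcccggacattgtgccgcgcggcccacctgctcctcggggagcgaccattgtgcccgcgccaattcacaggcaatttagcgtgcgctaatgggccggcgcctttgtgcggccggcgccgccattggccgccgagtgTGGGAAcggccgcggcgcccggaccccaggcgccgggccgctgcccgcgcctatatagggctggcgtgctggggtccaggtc
Nrarp: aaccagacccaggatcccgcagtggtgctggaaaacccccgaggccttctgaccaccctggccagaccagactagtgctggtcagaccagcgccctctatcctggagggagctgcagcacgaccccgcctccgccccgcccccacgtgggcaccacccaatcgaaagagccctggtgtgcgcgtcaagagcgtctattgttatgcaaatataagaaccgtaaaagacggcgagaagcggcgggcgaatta
*Hes5* had 2 such matches, which begin 226 and 82 bases before its start, and *Nrarp* had none in this window. The letters stood in 2 of the 9 Notch targets with a promoter in the table (22.2%). Among tested genes with a promoter in the RefSeq table, 9345 of 13239, the motif letters stood in 23.4%, and among all 32851 windows of this length in 21.6%. They stood in 8 of 29 genes (27.6%) that rose in both responses and in 14 of 37 (37.8%) that rose with sgControl only and differed. The letters of the RUNX motif (TGTGGT or TGCGGT, either strand) stood in 5 of 29 (17.2%) and 5 of 37 (13.5%) of these genes and in 21.2% of all tested genes. Of the 8 genes that fell with sgCbfb only and differed, 4 (50.0%) held the RUNX letters and 2 (25.0%) the RBPJ letters. These matches describe the letters in the window and do not mark bound sites.

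*Hes1* (ENSMUSG00000022528, chromosome 16, 30064384 to 30067796 in GRCm38), the repressor that is the textbook Notch target, was at 2.82, 8.03 and 2.85 CPM in the 3 sgCbfb LP libraries and at 99.8, 84.8 and 103 CPM in the sgCbfb Phase 1 libraries. The stages did not overlap, and the sgControl Phase 1 libraries, at 98.1, 103 and 56.5 CPM, lay around the same level. The limma log2 fold change was 4.24 ± 0.46 (SE) with sgCbfb and 5.22 ± 0.46 with sgControl (Benjamini-Hochberg adjusted P = 5e-06 and 5.6e-08), and the difference was not called (adjusted P = 0.65). *Nrarp* (chromosome 2, 25180758 to 25183339), a feedback inhibitor of Notch, rose from 0, 2.87 and 2.85 CPM to 119, 129 and 101 CPM with sgCbfb. This was the highest of the 4 groups, since the sgControl Phase 1 libraries held 60, 74.8 and 38.9 CPM, none as high as any sgCbfb Phase 1 library. Its log2 fold change of 5.57 ± 0.46 with sgCbfb (limma, Benjamini-Hochberg adjusted P = 6.9e-08) stood beside 3.36 ± 0.46 with sgControl, and the difference was not called (adjusted P = 0.13). Exons of *Nrarp* overlap those of the antisense gene *Gm38287* by 2051 bases, so reads of the 2 genes may not have been kept apart, since no source used here says if reads were assigned by strand. The same holds for *Hes5* (antisense gene *Gm20421*) and, among genes described further on, for *Notch1*, *Gata3*, *Bcl11a*, *Itga4* and *Mpo*, whose exons also overlap those of an antisense gene.

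*Dtx1* (chromosome 5, 120680202 to 120711927), which codes for the Notch regulator Deltex, had 3 reads in all sgCbfb LP libraries together and was at 32.4, 57.2 and 38.9 CPM in sgCbfb Phase 1 cells, a ratio of reads of 65.2 (95% exact interval 22 to 319). The rise was called in both responses, to a lower level with sgCbfb than the 104, 104 and 135 CPM of the sgControl Phase 1 libraries (log2 fold changes 4.73 ± 0.47 and 6.47 ± 0.47), and the difference was not called (limma, Benjamini-Hochberg adjusted P = 0.31). *Hes5* (chromosome 4, 154960923 to 154962371), a relative of *Hes1*, was the opposite case. It rose with sgCbfb from 3.53, 1.72 and 4.28 CPM to 75.2, 40.2 and 50.1 CPM (limma, Benjamini-Hochberg adjusted P = 5.2e-05), while the sgControl libraries held 0.590, 1.86 and 0.642 CPM in LPs and 3.53, 4.52 and 5.13 CPM in Phase 1 cells (adjusted P = 0.083). The interaction did not pass (adjusted P = 0.14, and 0.0039 to 0.49 over the alternatives, with a call at a pseudocount of 5), so a larger rise with sgCbfb was not shown. *Hes5* exons overlap the antisense gene *Gm20421* by 433 bases.

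*Il2ra* (chromosome 2, 11642807 to 11693193), the gene of the surface marker CD25, rose less than with sgControl. It was at 17.6, 17.2 and 25.7 CPM in sgCbfb LPs and at 121, 106 and 119.6 CPM in sgCbfb Phase 1 cells, against 4.72, 2.48 and 0.642 and 410.1, 355 and 348 CPM with sgControl. The sgCbfb cells thus started above and ended below the sgControl cells with no overlap at either stage. The log2 fold change was 2.48 ± 0.32 with sgCbfb and 6.86 ± 0.32 with sgControl, a difference of -4.38 ± 0.45 (limma, Benjamini-Hochberg adjusted P = 7.7e-06) that was called under all 21 alternatives. *Notch1* (chromosome 2, 26457903 to 26516663) was at 381, 411 and 388 and 601, 718 and 621 CPM in the 2 sgCbfb stages, past the adjusted P value (0.002, limma, Benjamini-Hochberg) but under the fold threshold, and it was called with sgControl (263 to 534 CPM). *Notch3* was at 7.82 and 27.6 CPM with sgCbfb and missed the threshold (limma, Benjamini-Hochberg adjusted P = 0.13, and 0.002 to 0.52 over the alternatives, 5 of 24 of which called it, edgeR among them). *Myc* was at 24.1 and 24.9 CPM. Of 23 tested genes of Notch receptors and machinery, none was called with sgCbfb and 3 were with sgControl (*Notch1*, *Notch3* and, lower, *Maml3*), with no difference called. Among all tested genes 1.19% and 3.39% were called, so a list of this size can hold no call.

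**Figure D2:**
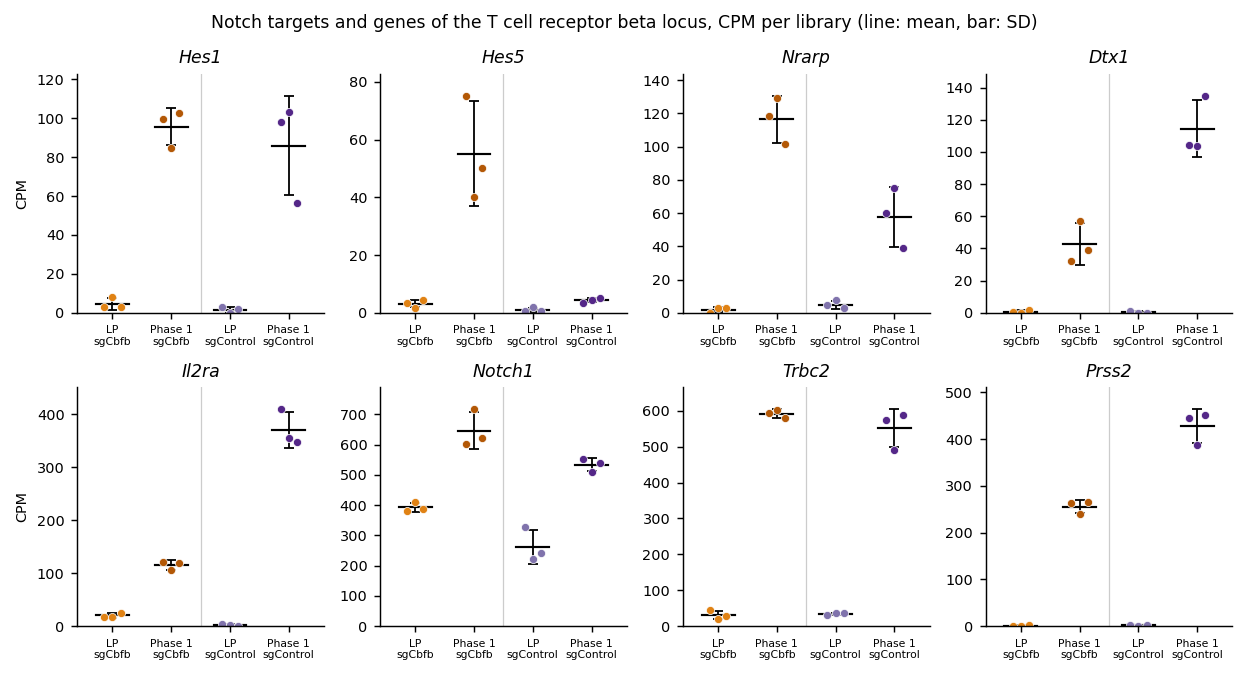
CPM of 8 genes in each of 12 libraries, by stage and sgRNA; points are libraries, lines the group means and bars the SD (n = 3), each axis starting at 0. *Hes1*, *Nrarp*, *Dtx1*, *Trbc2* and *Prss2* rose with both sgRNAs, *Il2ra* reached a mean of 115 CPM with sgCbfb against 371 CPM with sgControl, and *Hes5* was above 40 CPM only in the sgCbfb Phase 1 libraries.

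Genes at the end of the T cell receptor β locus on chromosome 6 were among the strongest rises with sgCbfb. *Trbc2* (chromosome 6, 41546730 to 41548352), a constant region gene of the β chain, rose from 43.7, 20.6 and 29.3 CPM in sgCbfb LPs to 594, 603 and 579 CPM in sgCbfb Phase 1 cells, and the sgControl Phase 1 libraries were at 575, 490.3 and 588 CPM. Its log2 fold change was 4.26 ± 0.19 with sgCbfb and 3.94 ± 0.19 with sgControl, and the interaction was not called (limma, Benjamini-Hochberg adjusted P = 0.74). *Prss2* (chromosome 6, 41521787 to 41525079), a trypsin gene that lies 13.1 kb before *Trbc1* and 21.7 kb before *Trbc2*, had the largest log2 fold change of all genes called with sgCbfb, from 0, 0.573 and 2.14 CPM to 264, 239 and 265 CPM (7.24 ± 0.33, limma, Benjamini-Hochberg adjusted P = 2.3e-12). With sgControl it was 7.35 ± 0.33. *Trbc1* rose to 38.3, 52.8 and 41.3 CPM with sgCbfb and to 174, 152 and 171 CPM with sgControl (log2 fold changes 4.46 ± 0.36 and 5.51 ± 0.36, difference not called, limma, Benjamini-Hochberg adjusted P = 0.49). *Trbc1* and *Trbc2* are close copies, so reads could be split between them.

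Other receptor genes did not share this. Among 10 tested constant region and recombination genes, *Trbc1* and *Trbc2* rose and *Dntt* fell with sgCbfb, and 7 were not called. With sgControl *Trbc1*, *Trbc2* and *Trgc4* rose, *Trac* and *Dntt* fell, and 5 were not called. The difference was called for *Trgc4* alone. *Trgc4*, a constant region of the γ chain and one of several near copies, was at 89.6, 75.1 and 79.9 CPM in sgCbfb LPs and 77.2, 93.6 and 94.3 CPM in sgCbfb Phase 1 cells, 2 groups that overlapped, while it rose from 64.5 to 179 CPM with sgControl (interaction -1.37 ± 0.26, limma, Benjamini-Hochberg adjusted P = 0.0057). The recombinase genes *Rag1* and *Rag2* were at 67.5 and 37.7 CPM in sgCbfb LPs and at 55 and 23.4 CPM in sgCbfb Phase 1 cells, and neither was called with either sgRNA.

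Of the transcription factors that establish the T lineage, most were called with neither sgRNA, and some rose with sgControl and were not called with sgCbfb. Of 14 tested on a list of 17, *Bcl11b* rose and *Ets1* fell with sgCbfb, and 12 were not called, beside 1.19% of all tested genes called. With sgControl 4 rose (*Tcf7*, *Gata3*, *Bcl11b* and *Zfpm1*) and 10 were not called, beside 3.39%. The list median was -0.06 with sgCbfb and 0.79 with sgControl, and the difference was called for *Tcf7*, *Gata3*, *Zfpm1* and *Myb*, in each case negative.

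*Tcf7* (ENSMUSG00000000782, chromosome 11, 52252371 to 52283014), the gene of TCF1, was at 7.05, 1.72 and 5.71 CPM in sgCbfb LPs and at 13, 8.17 and 17.1 CPM in sgCbfb Phase 1 cells. With sgControl it went from 5.90, 1.24 and 6.42 CPM to 183, 149 and 111 CPM, so that the lowest sgControl Phase 1 library was far above every sgCbfb library. The log2 fold change was 1.33 ± 0.49 with sgCbfb, which missed the threshold (limma, Benjamini-Hochberg adjusted P = 0.21), and 4.90 ± 0.49 with sgControl, and the difference of -3.58 ± 0.69 was called (adjusted P = 0.007). Without moderated variances it was not (adjusted P of 0.00029 to 0.14 over all alternatives). *Gata3* (chromosome 2, 9857078 to 9890034), which acts beside TCF1, held 38.8, 35.6 and 36.4 CPM in sgCbfb LPs and 45.4, 44.6 and 39.5 CPM in sgCbfb Phase 1 cells. These levels are close to those of sgControl LPs (38.4, 28.5 and 32.8 CPM), and the sgControl Phase 1 libraries were at 131, 152 and 142 CPM. The log2 fold changes were 0.22 ± 0.19 and 2.07 ± 0.19, and the difference of -1.85 ± 0.27 was called under all 21 alternatives (limma, Benjamini-Hochberg adjusted P = 0.0005). *Zfpm1*, whose product FOG1 binds GATA factors, was at 31, 34.4 and 30 and 32.4, 34.6 and 19.4 CPM in the sgCbfb stages and rose from 18.6 to 63.7 CPM with sgControl (difference -1.91 ± 0.39, limma, Benjamini-Hochberg adjusted P = 0.012). *Myb* was at 913, 797 and 874 CPM and then 645, 641 and 609 CPM with sgCbfb and at 527 and 911 CPM with sgControl, under the fold threshold in each, with opposite signs and a difference of -1.23 ± 0.15 (limma, Benjamini-Hochberg adjusted P = 3.8e-05).

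*Bcl11b* (chromosome 12, 107910403 to 108003602), the factor that marks T-lineage commitment, rose in both responses from unequal levels. The sgCbfb libraries went from 13.4, 7.46 and 20 CPM to 38.9, 35.2 and 38.3 CPM, and the sgControl libraries from 85.6, 62.5 and 80.9 CPM to 489, 470.3 and 356 CPM. Every sgCbfb Phase 1 library thus lay under every sgControl LP library. Log2 fold changes were 1.49 ± 0.25 and 2.505 ± 0.25, and the difference was not called (limma, Benjamini-Hochberg adjusted P = 0.25, and 0.024 to 0.5 over the alternatives). The rise with sgCbfb was called under all alternatives but the one without moderated variances (adjusted P = 0.064). *Ets1* fell with sgCbfb from 113, 111 and 96.3 CPM to 55.1, 46.5 and 46 CPM (log2 fold change -1.10 ± 0.19, limma, Benjamini-Hochberg adjusted P = 0.0013), and was at 84.5 and 59.6 CPM with sgControl, with no difference called.

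Of the genes of T cell receptor signalling, *Cd28* alone was called in both responses, and its sgControl call was lost under 15 of 24 alternatives. Of 23 tested, *Cd28* rose and *Ubash3a* fell with sgCbfb, beside 1.19% of all tested genes, and 9 rose and none fell with sgControl, beside 3.39%. The list medians were 0.33 and 1.56. *Cd3g* (chromosome 9, 44969572 to 44980431), a subunit of the CD3 complex, had 8 reads in the sgCbfb LP libraries and 12 in the sgCbfb Phase 1 libraries together, at most 2.51 CPM as a mean, and 57.9, 40.6 and 33.7 CPM in sgControl Phase 1 cells. *Cd247*, the ζ chain, was at 3.95 and 1.47 CPM with sgCbfb and rose from 5.14 to 40.6 CPM with sgControl. The differences were -4.61 ± 0.76 and -3.59 ± 0.76 (limma, Benjamini-Hochberg adjusted P = 0.0017 and 0.016). That of *Cd3g* was called under all 21 alternatives and that of *Cd247* under 16, with adjusted P values of 0.0013 to 0.092. *Cd3d* was at 5.64, 3.44 and 1.43 CPM and then 1.95, 1.26 and 1.18 CPM with sgCbfb, and its rise with sgControl, to a mean of 18.6 CPM, was lost when any single sgControl library was left out.

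*Lcp2*, the adaptor SLP-76, differed mainly at the LP stage. It was at 28.9, 37.3 and 25 CPM in sgCbfb LPs and 73.9, 78.5 and 53 CPM in sgCbfb Phase 1 cells, and at 3.54, 0.619 and 3.85 and 44.5, 35.5 and 45.5 CPM with sgControl. The Phase 1 means were within 2-fold of each other, and the LP means were not. Its sgCbfb value missed the threshold (log2 fold change 1.15 ± 0.36, limma, Benjamini-Hochberg adjusted P = 0.13, and 0.00026 to 0.39 over the alternatives, of which edgeR and 4 others called it), and the difference of -2.55 ± 0.51 was called (adjusted P = 0.01). *Thy1* held 127, 159 and 163 CPM and 126, 148 and 149.7 CPM in the sgCbfb stages and means of 188 and 342 CPM with sgControl (difference -0.95 ± 0.21, limma, Benjamini-Hochberg adjusted P = 0.02, called under 15 of 21 alternatives). The kinase gene *Lck* was at 34.1 and 47.6 CPM with sgCbfb and rose from 121 to 278 CPM with sgControl, without a called difference (limma, Benjamini-Hochberg adjusted P = 0.48). *Cd28* rose from 22.6, 17.8 and 21.4 CPM to 53.2, 67.9 and 47.1 CPM with sgCbfb, a call lost when any single one of these 6 libraries was left out (limma, Benjamini-Hochberg adjusted P = 0.019, and 7.1e-05 to 0.16 over the alternatives). *Ubash3a*, a negative regulator, fell from 43.9 to 20.4 CPM, a call lost when any one of 5 of the 6 libraries was left out.

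Of the 47 genes whose rise with sgControl was not called with sgCbfb and differed, 25 were only over 2-fold lower in sgCbfb than in sgControl Phase 1 cells by group means, 10 were only over 2-fold higher in sgCbfb than in sgControl LPs, 7 met both and 5 neither. *Tcf7* and *Gata3* belong to the first of these, *Lcp2* and *Kit* to the second. *Kit* (chromosome 5, 75574916 to 75656722), the SCF receptor, was at 101, 88.3 and 102 CPM in sgCbfb LPs, all above the 33.1, 26.6 and 30.8 CPM of sgControl LPs. In Phase 1 cells it was at 73.9, 89.2 and 83.1 CPM with sgCbfb and 145, 172 and 80.7 CPM with sgControl, which overlapped. Its difference of -2.28 ± 0.31 was called under all 21 alternatives (limma, Benjamini-Hochberg adjusted P = 0.00021).

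The largest rises with sgControl that were absent from the sgCbfb calls and differed, beside *Tcf7*, *Cd3g* and *Lcp2*, were those of *Cpa3*, *Sytl3*, *Cldn2*, *Tnfrsf9* and *Nrp1*. *Cpa3*, a mast cell protease gene also seen in early progenitors, was at 1.30, 3.77 and 3.54 CPM in sgCbfb Phase 1 cells and at 71.3, 48.4 and 80 CPM in sgControl Phase 1 cells. *Tnfrsf9*, a costimulatory receptor gene, was at 0.648, 1.26 and 2.36 and 41.6, 28.4 and 60.9 CPM in these groups. Means in Phase 1 cells were 1.03 and 25.7 CPM for *Sytl3*, 0.825 and 15.6 CPM for *Cldn2* and 1.51 and 30.5 CPM for *Nrp1* with sgCbfb and sgControl. All 5 were at or near the floor of 3 reads in both LP groups, and edgeR called the difference for *Tnfrsf9* and for none of the other 4. The differences of *Cldn2* and *Nrp1* were lost under 18 and 14 of 21 alternatives.

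**Figure D3:**
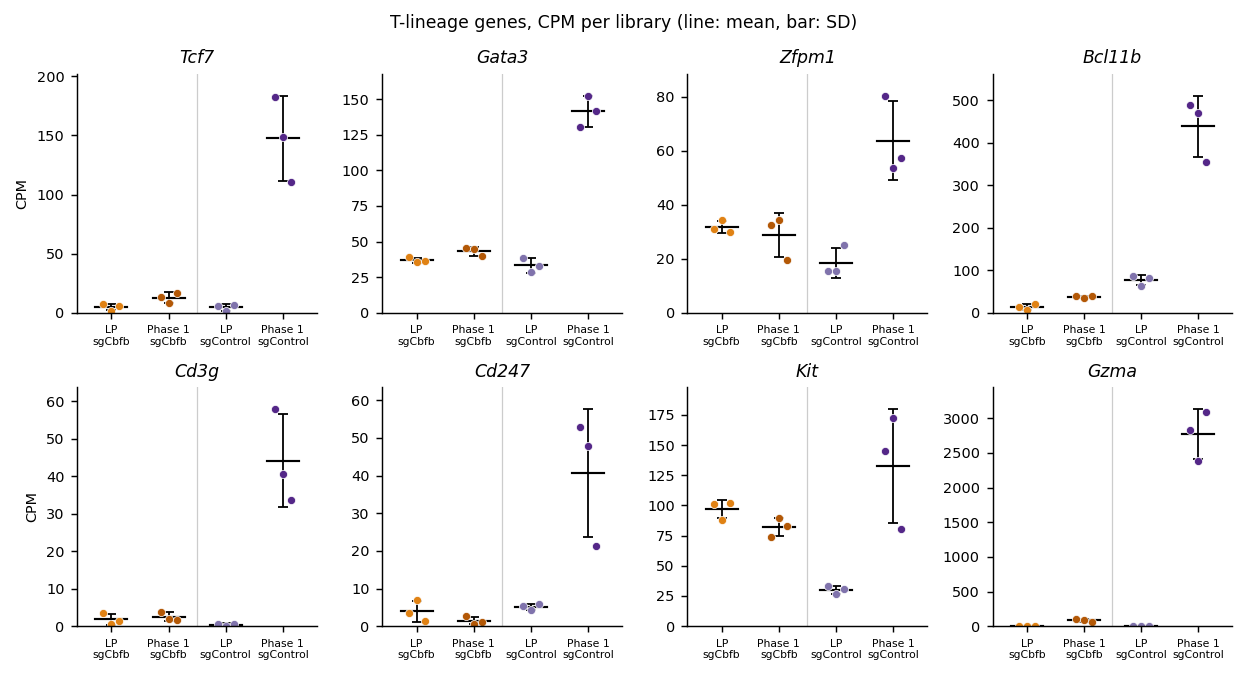
CPM of 8 T-lineage genes in each of 12 libraries, by stage and sgRNA, with group means and SD (n = 3) on linear axes from 0. *Tcf7*, *Gata3*, *Zfpm1*, *Cd3g* and *Cd247* were highest in the sgControl Phase 1 libraries and were at means of 1.47 to 43.2 CPM in sgCbfb Phase 1 cells, while *Bcl11b* and *Gzma* rose with both sgRNAs to unequal levels.

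Other genes rose with both sgRNAs. *Gzma* (chromosome 13, 113093825 to 113100981), a granzyme gene, went from 4.23, 0.573 and 0.713 CPM to 109.6, 86.7 and 61.3 CPM with sgCbfb and reached 2837, 2378 and 3093 CPM with sgControl. The rise with sgCbfb was large and ended far under that of sgControl cells (log2 fold changes 5.13 ± 0.39 and 8.79 ± 0.39, difference -3.66 ± 0.55, limma, Benjamini-Hochberg adjusted P = 0.00074). *Gzma* was the 1 cytotoxic or innate lymphoid gene called with sgCbfb of 17 tested, where 6 rose with sgControl. Among all tested genes 0.740% and 1.65% rose. The summed level of the 22 other genes of that list was 213 to 297 CPM in sgCbfb LP libraries and 275 to 341 CPM in sgCbfb Phase 1 libraries, and 426 to 539 CPM and 740 to 902 CPM in sgControl LP and Phase 1 libraries. *Nkg7*, of the granule membrane, was at 9.08, 3.77 and 11.8 CPM in sgCbfb Phase 1 cells and at 140.5, 115 and 175 CPM in sgControl Phase 1 cells.

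*Cdh1*, the gene of E-cadherin, had 3 reads in the sgCbfb LP libraries together and rose to 68.7, 67.2 and 76 CPM, a ratio of reads of 108 (95% exact interval 36.5 to 525). From 19.2 CPM with sgControl it rose to 205 CPM, and the positive difference of 2.12 ± 0.45 (limma, Benjamini-Hochberg adjusted P = 0.016, and 0.0014 to 0.52 over the alternatives) went with the lower start. *Ly6d*, a surface marker of lymphoid precursors, rose from 2.12, 0.573 and 1.43 CPM to 26.6, 39.6 and 35.4 CPM with sgCbfb and from 144 to 341 CPM with sgControl, so that no sgCbfb Phase 1 library reached an sgControl LP library. *Lair1*, an inhibitory receptor gene, went from 1 read in all 3 LP libraries to 24.6, 25.1 and 23.6 CPM with sgCbfb and to 52.2, 37.4 and 9.54 CPM with sgControl. *Slc35d3*, a transporter gene, rose to 23.3, 36.4 and 33 CPM with sgCbfb and was at 6.35, 14.2 and 4.40 CPM in sgControl Phase 1 cells, under the level needed for a call. Of 16 adhesion and homing genes, *Itga4* and *Itgb7* rose and *Ccr9* fell with sgCbfb, as they did with sgControl, where *Itgae*, *Itgal* and *Ly6a* also rose and *Cd69* fell. In either direction, 1.19% and 3.39% of all tested genes were called with sgCbfb and sgControl. *Itga4*, the integrin α4 gene, was at 567, 445 and 493 CPM in sgCbfb LPs and 1093, 1070.1 and 961 CPM in sgCbfb Phase 1 cells, and its fold was under the threshold without LP sgCbfb replicate 2. Of the 43 genes that rose in both responses, 22 ended within 2-fold of each other in the 2 Phase 1 groups by their means, 16 ended over 2-fold lower with sgCbfb and 5 over 2-fold higher.

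The fall of progenitor genes was split as well. *Dntt* (chromosome 19, 41029275 to 41059525), the gene of terminal transferase, fell with sgCbfb from 322, 229 and 202 CPM to 64.2, 54 and 48.3 CPM and with sgControl from 38.4, 32.2 and 47.5 CPM to 2.82, 5.16 and 7.33 CPM. While the 2 falls were not shown to differ (log2 fold changes -2.14 ± 0.27 and -2.78 ± 0.27, limma, Benjamini-Hochberg adjusted P = 0.6 for the difference), the sgCbfb cells ended above the level at which sgControl LPs began. *Ccr9* (chromosome 9, 123678439 to 123784330), a chemokine receptor gene, fell from 255, 215 and 234 CPM to 53.2, 67.9 and 53 CPM with sgCbfb and from 989 to 131 CPM with sgControl. The falls differed by 0.91 ± 0.20 (limma, Benjamini-Hochberg adjusted P = 0.017, called under 15 of 21 alternatives). *Flt3* (chromosome 5, 147330741 to 147400489), the Flt3L receptor of early progenitors, was at 318, 272 and 191 CPM in sgCbfb LPs and 104, 109 and 82.5 CPM in sgCbfb Phase 1 cells, and at 36.7, 56.1 and 15.4 CPM in sgControl Phase 1 cells. The LP libraries of both sgRNAs overlapped, and all sgCbfb Phase 1 libraries were above all sgControl ones. Its fall with sgCbfb (-1.37 ± 0.29, limma, Benjamini-Hochberg adjusted P = 0.0081) was lost when LP sgCbfb replicate 1 or Phase 1 sgCbfb replicate 3 was left out (adjusted P values of 3.6e-10 to 0.22 over the alternatives), and the difference from sgControl was called under 10 of 21 alternatives.

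*Ighm*, the immunoglobulin μ gene and the only gene called with sgCbfb among 11 tested B-lineage genes, fell from 245, 189 and 179.8 CPM to 128, 88.6 and 86.6 CPM, and its log2 fold change of -1.02 lay so near the threshold that it was under it without LP sgCbfb replicate 1, Phase 1 sgCbfb replicate 2 or Phase 1 sgCbfb replicate 3. With sgControl *Ighm* had a log2 fold change of -2.50 ± 0.18 (interaction 1.49 ± 0.26, limma, Benjamini-Hochberg adjusted P = 0.0031). *Il7r*, the IL-7 receptor gene, had a log2 fold change of -0.80 ± 0.15 with sgCbfb and -0.80 ± 0.15 with sgControl, past the adjusted P value and under the fold threshold in both. The largest falls with sgCbfb were mostly of low genes. *Mpo*, a granulocyte peroxidase gene, went from 19, 18.4 and 12.8 CPM to 0.648, 3.14 and 1.18 CPM (log2 fold change -2.83 ± 0.55, limma, Benjamini-Hochberg adjusted P = 0.0042), a call made under all 24 alternatives. *Cdh13*, a cadherin gene at a higher level, fell from 135, 142 and 106 CPM to 28.5, 33.9 and 27.7 CPM, likewise under all 24, and from 188 to 27.3 CPM with sgControl. *Gm33091*, *Rsph9*, *Ect2l*, *Ptgds*, *Gm29684*, *Tph1* and *Col4a2* fell from means of 10.6 to 39.1 CPM to means of 0.838 to 6.76 CPM, and each of these 7 calls was lost without at least 1 sgCbfb library.

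Several progenitor transcription factors that fell with sgControl were not called with sgCbfb. Of 20 tested progenitor transcription factors, 6 fell with sgControl (*Hoxa5*, *Hoxa7*, *Hoxa9*, *Hoxa10*, *Mef2c* and *Mn1*) and *Nfe2* rose, and none of these 7 was called with sgCbfb, where *Mycn* fell (a call lost without LP sgCbfb replicate 1 or Phase 1 sgCbfb replicate 2) and *Bcl11a* and *Irf8* rose. The interaction was positive for 7 of the 20 and negative for *Nfe2*. *Hoxa9* (chromosome 6, 52223100 to 52231089), a factor of progenitor self-renewal, was at 819.6, 687 and 707 CPM in sgCbfb LPs and 554, 525 and 613 CPM in sgCbfb Phase 1 cells. It fell from 889, 775 and 797 CPM to 273, 252 and 235 CPM with sgControl, under every sgCbfb library. Log2 fold changes were -0.39 ± 0.11 and -1.69 ± 0.11, with a difference of 1.31 ± 0.16 (limma, Benjamini-Hochberg adjusted P = 4.2e-05). *Hoxa5* was at 343, 274 and 255 CPM and then 257, 236 and 246 CPM with sgCbfb, which overlapped, and fell to 80.5, 68.4 and 34.5 CPM with sgControl. *Hoxa10* was at 257, 236 and 227 CPM and 156, 163 and 155 CPM with sgCbfb, past the adjusted P value (0.018, limma, Benjamini-Hochberg) and under the fold threshold, and fell to a mean of 51.5 CPM with sgControl.

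*Mef2c* (chromosome 13, 83504034 to 83667080), a factor of lymphoid and myeloid progenitors, followed the same pattern. The sgCbfb libraries held 1148, 1061 and 993 CPM in LPs and 997, 946 and 863 CPM in Phase 1 cells, and the sgControl libraries fell from 1037, 923 and 924 CPM to 246, 291 and 359 CPM. The sgCbfb stages overlapped and the sgControl stages were far apart (log2 fold changes -0.19 ± 0.12 and -1.70 ± 0.12, difference 1.51 ± 0.17, limma, Benjamini-Hochberg adjusted P = 2.3e-05). *Mn1*, a transcriptional coregulator known from leukaemia, was at 64.9, 82.6 and 53.5 CPM and 47.3, 38.3 and 39.5 CPM with sgCbfb and fell from 183, 144 and 154 CPM to 26.1, 9.68 and 14.7 CPM with sgControl (difference 2.62 ± 0.38, adjusted P = 0.00044 in the same test). The differences of *Hoxa9*, *Hoxa10* and *Mef2c* were called under all 21 alternatives, and those of *Hoxa5* and *Mn1* under all but the one without moderated variances. *Spi1*, the gene of PU.1, was at 100 and 113 CPM with sgCbfb and at 78 and 96.8 CPM with sgControl, and was called in neither.

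Among the 42 genes whose fall with sgControl was not called with sgCbfb and differed, the largest falls were those of *Igf1*, *Mn1*, *Sdc1*, *Lamtor3*, *Hoxa3*, *Lrp1*, *Foxf1* and *Gria2*. *Igf1*, a growth factor gene, was at 42.3, 48.8 and 45.7 CPM in sgCbfb LPs and 24, 23.2 and 29.5 CPM in sgCbfb Phase 1 cells, and fell from 109, 91.6 and 72.6 CPM to 3.53, 3.87 and 5.13 CPM with sgControl (difference 3.33 ± 0.37, limma, Benjamini-Hochberg adjusted P = 2.1e-05). *Sdc1*, the syndecan 1 gene, was at 34.6, 29.3 and 24.3 CPM and 32.4, 35.2 and 34.8 CPM with sgCbfb and fell to 9.18, 3.23 and 10.3 CPM with sgControl. Of the 42, 26 were only over 2-fold higher in sgCbfb than in sgControl Phase 1 cells by their means, 5 were only over 2-fold lower in sgCbfb than in sgControl LPs, 1 met both and 10 neither. *Hoxa9* and *Mef2c* belong to the first of these. The calls of the difference for *Hoxa3* and *Foxf1* were lost in over 10 of 21 alternatives, and exons of *Hoxa3* overlap several antisense genes of the cluster.

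**Figure D4:**
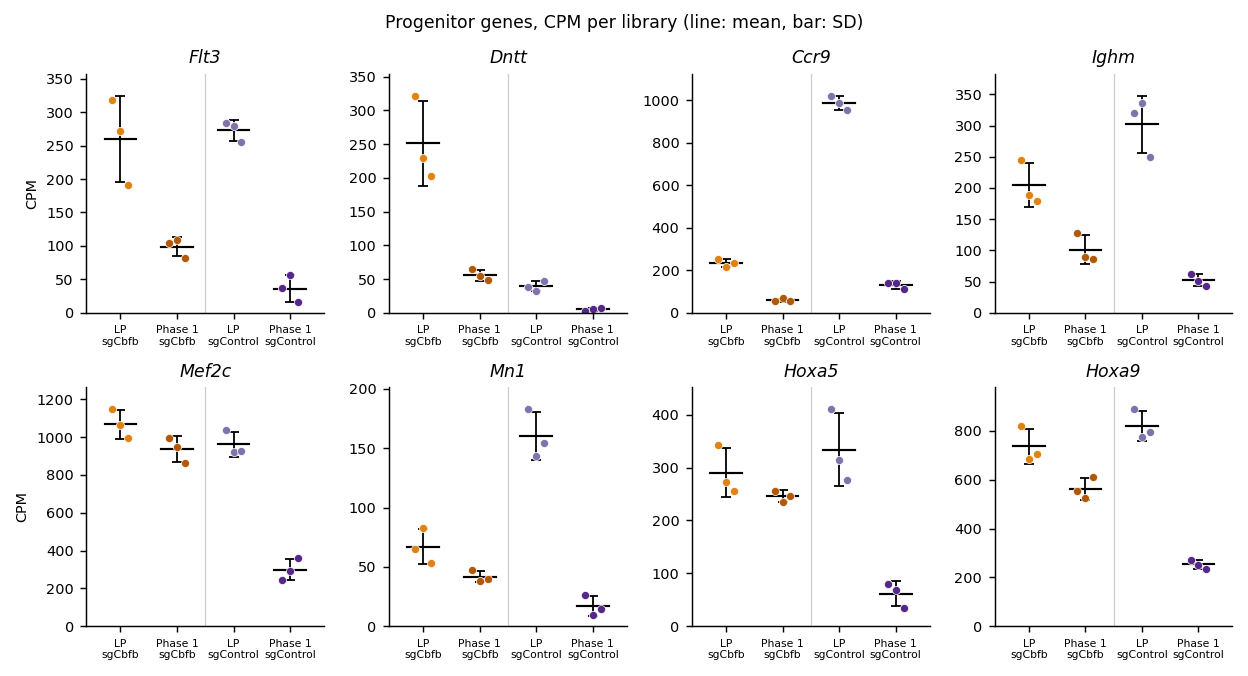
CPM of 8 progenitor genes in each of 12 libraries, by stage and sgRNA, with group means and SD (n = 3) on linear axes from 0. *Flt3*, *Dntt*, *Ccr9* and *Ighm* fell with both sgRNAs, whereas *Mef2c*, *Mn1*, *Hoxa5* and *Hoxa9* fell with sgControl and were not called with sgCbfb.

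Another set of 19 genes rose with sgCbfb, was not called with sgControl and differed. *Spic*, the gene of an ETS-family transcription factor, had no read in either LP group and was at 11.7, 10.1 and 18.9 CPM in sgCbfb Phase 1 cells, at least 6.79-fold higher against a floor of 3 reads per library, with 1 read in the sgControl Phase 1 libraries. *Hpse* (chromosome 5, 100679484 to 100719716), the heparanase gene, rose from 0, 1.72 and 1.43 CPM to 59.6, 57.2 and 53.6 CPM with sgCbfb and was at 8.85, 5.57 and 3.85 and 3.53, 0 and 5.87 CPM with sgControl. It had the largest difference of this set, 6.06 ± 0.88 (limma, Benjamini-Hochberg adjusted P = 0.00047). *Stc1*, the stanniocalcin gene, went from 1 read to 26.6, 21.4 and 22.4 CPM with sgCbfb, and *Htra3*, a secreted protease gene, from 3 reads to 16.9, 21.4 and 16.5 CPM, both at means of 0.470 and 2.28 CPM in sgControl Phase 1 cells. EdgeR called the sgCbfb rise of *Spic* and *Stc1* and not their difference. *Cd9*, a tetraspanin gene, rose from 4.23, 2.87 and 0 CPM to 22, 17 and 29.5 CPM, and its difference was called under 10 of 21 alternatives.

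Of 14 tested myeloid genes, *Mpo* and *F13a1* fell with sgCbfb (*F13a1* was lost when any single sgCbfb library was left out), and 12 were not called, while 13 of the 27 listed, among them *Lyz1*, *Lyz2*, *S100a8*, *S100a9* and *Cd14*, were too low to test. The summed level of the list was 977 to 1044 CPM in sgCbfb LP libraries and 858 to 878 CPM in sgCbfb Phase 1 libraries, against 505 to 573 and 418 to 505 CPM in the sgControl libraries. Of 10 tested dendritic genes, *Ly6d* and *Irf8* rose and *Ccr9* fell with sgCbfb. Both this count and that of the myeloid genes stand beside 1.19% of all tested genes. The summed level of the 15 listed dendritic genes was 741 to 796 CPM in sgCbfb LP libraries and 542 to 631 CPM in sgCbfb Phase 1 libraries, against 2092 to 2312 and 769 to 1174 CPM with sgControl. These sums include *Ccr9*, so its fall, described above for both sgRNAs, is part of them. Sums without *Ccr9* were not computed, and the sums do not show a fall of the list as a whole. In bulk libraries, fewer cells of a type and less RNA per cell cannot be told apart.

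*Bcl11a* (chromosome 11, 24078056 to 24174123), a factor of lymphoid and dendritic progenitors, rose with sgCbfb from 60.7, 58.5 and 84.9 CPM to 442, 489 and 462 CPM. The sgControl libraries were at 157, 132 and 120.1 CPM in LPs and 212, 223 and 229.6 CPM in Phase 1 cells, a log2 fold change of 0.70 ± 0.15 under the fold threshold, against 2.77 ± 0.15 with sgCbfb. The sgCbfb cells crossed the sgControl cells from below. *Irf8*, a factor of dendritic cells and monocytes, rose from 19, 25.8 and 32.1 CPM to 77.2, 64.1 and 52.4 CPM with sgCbfb, which brought it to the level of the sgControl Phase 1 libraries (60, 63.9 and 62.4 CPM) from under that of sgControl LPs (84.4, 92.3 and 64.9 CPM). *Nrgn*, a calmodulin-binding protein gene, was at a mean of 1456 CPM the most abundant of the 19 genes in Phase 1 cells and rose from 304, 320.1 and 316 CPM to 1378, 1607 and 1383 CPM (sgControl means 734 and 1342 CPM). With sgControl *Nrgn* also rose, past the adjusted P value (2.5e-06, limma, Benjamini-Hochberg) and under the fold threshold. The differences of *Bcl11a*, *Irf8* and *Nrgn* were 2.07 ± 0.21, 1.67 ± 0.31 and 1.34 ± 0.14 (limma, Benjamini-Hochberg adjusted P = 7.7e-06, 0.0061 and 7.7e-06).

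**Figure D5:**
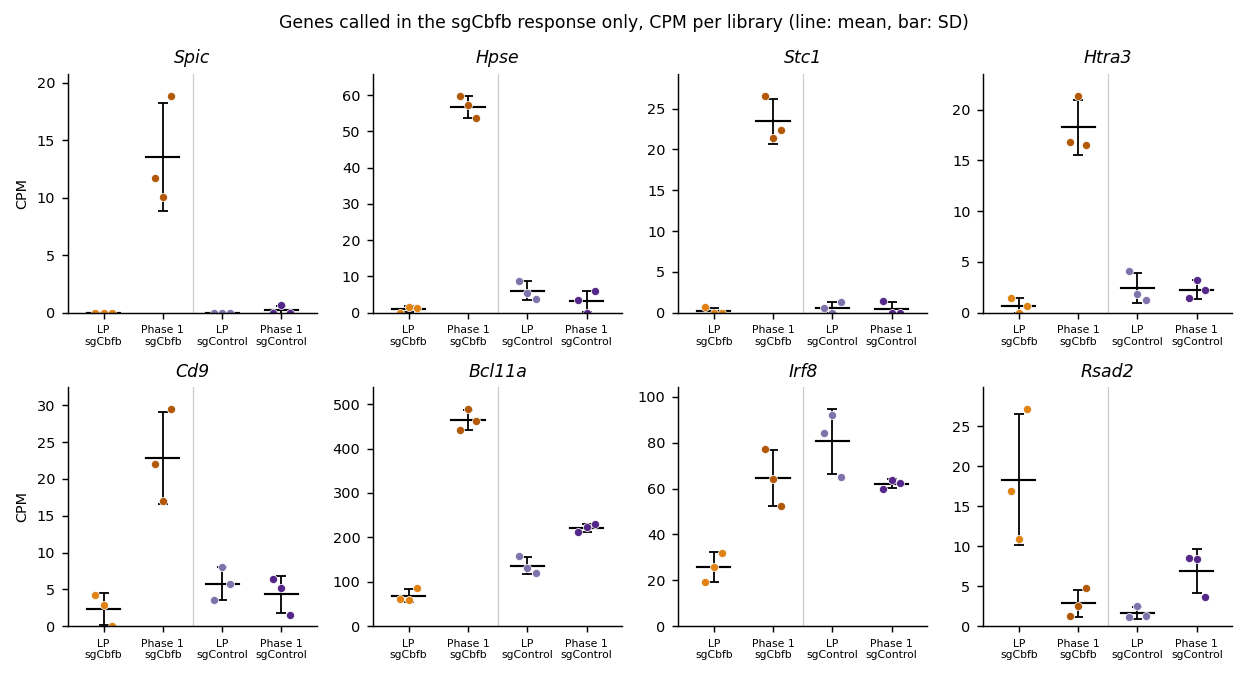
CPM of 8 genes called in the sgCbfb response and not in the sgControl response, with a called difference, in each of 12 libraries, with group means and SD (n = 3) on linear axes from 0. *Spic*, *Hpse*, *Stc1*, *Htra3* and *Cd9* were high only in sgCbfb Phase 1 libraries, *Bcl11a* and *Irf8* rose from below the sgControl LP level, and *Rsad2* fell from a level above it.

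In the other direction, 8 genes fell with sgCbfb, were not called with sgControl and differed. *Arpp21*, which codes for an RNA-binding protein of lymphoid precursors, fell from 318, 208 and 260.5 CPM to 90.8, 99.9 and 99.6 CPM with sgCbfb and was at 256, 177 and 193 and 199, 209 and 194 CPM with sgControl. Its difference was -1.37 ± 0.22 (limma, Benjamini-Hochberg adjusted P = 0.0017). *Myl10*, a myosin light chain gene, fell from 875 to 374 CPM, *Armcx4* from 217 to 84.7 CPM and *Rgcc* from 137 to 52.9 CPM. *Cst7*, a cystatin gene, fell from 70.5, 66 and 85.6 CPM to 24.6, 15.7 and 30.6 CPM and stayed at means of 49 and 50 CPM with sgControl. *Frat2* and *Clec12a* fell to means of 39.7 and 41.8 CPM, and the fall of *Clec12a* had a log2 fold change of -0.97, at the edge of the threshold, and was lost without any of 3 sgCbfb libraries. *Rsad2*, the interferon-induced gene of viperin, was at 16.9, 10.9 and 27.1 CPM in sgCbfb LPs, 1.30, 2.51 and 4.71 CPM in sgCbfb Phase 1 cells, and 1.18, 2.48 and 1.28 and 8.47, 8.39 and 3.67 CPM with sgControl. It was the single gene called with sgCbfb of 21 tested interferon-stimulated genes, beside 1.19% of all tested genes. The call was lost without any of 4 of the 6 sgCbfb libraries. The summed level of the 25 listed was 274 to 450 CPM in sgCbfb LP libraries and 231 to 296 CPM in sgCbfb Phase 1 libraries. With sgControl *Ifitm3* and *Cmpk2* rose, the list median was 0.85 against -0.34 with sgCbfb, and the difference was called for *Rsad2*, *Rtp4* and *Ifitm3*.

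The cell cycle, glycolysis, E protein, RUNX complex and cytokine receptor lists held at most 2 calls each with sgCbfb. Of 26 cell cycle genes *Ccnd2*, the cyclin D2 gene, rose with sgCbfb from 236, 291 and 318 CPM to 605, 557 and 529 CPM, right at the fold threshold (log2 fold change 1.01, and 0.89 with sgControl, where it was under the threshold, and lost without LP sgCbfb replicate 1 or Phase 1 sgCbfb replicate 1), and no other was called with either sgRNA. None of 15 tested glycolysis genes and none of 6 tested E protein and Id genes was called in either response. At the 1.19% and 3.39% of all tested genes called with sgCbfb and sgControl, a list of this size can hold no call, so the counts do not set these lists apart. *Id1*, an inhibitor of E proteins, was at means of 1.23 and 9.15 CPM with sgControl, past the adjusted P value (0.0048, limma, Benjamini-Hochberg) and under 10 CPM, and *Id2*, *Tcf4* and *Tcf12* passed the adjusted P value with sgControl under the fold threshold. Of 15 genes of the RUNX complex and its partners none was called with sgCbfb. *Runx3* was at 305, 303 and 279 CPM in sgCbfb LPs and 405, 447 and 415 CPM in sgCbfb Phase 1 cells, past the adjusted P value (0.012, limma, Benjamini-Hochberg) and under the fold threshold, and *Runx1* was at 872, 753 and 714 and 626, 562 and 621 CPM. *Runx2* was at 49.4, 45.9 and 47.8 and 86.9, 73.5 and 63.1 CPM with sgCbfb, and it fell with sgControl from 52.7 to 24.1 CPM (difference 1.73 ± 0.34, adjusted P = 0.0087 in the same test). Of 19 tested cytokine receptor genes, *Il2ra* rose and *Flt3* fell with sgCbfb, while *Il2ra*, *Kit* and *Il17rb* rose and *Flt3* and *Il10rb* fell with sgControl, and the differences of *Il2ra*, *Flt3* and *Kit* were called.

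The labelled identity was looked at on markers listed with earlier results of these data known. Several of them are response genes described above, so they are no independent check of identity. Of 5 tested LP markers, *Flt3* and *Dntt* fell in both responses, and *Igll1* was too low to test. Of 6 Phase 1 markers, *Hes1* and *Il2ra* rose with sgCbfb, where these and *Tcf7*, *Gata3* and *Kit* rose with sgControl. The sgCbfb Phase 1 libraries thus carried the rise of these 2 markers, and the other 4 were not called. Of 21 stromal genes, 17 were too low to test and none of 4 was called. Leaving out *Igfbp4*, which was high in every library and was singled out after its values were seen, the other 20 summed to 2.57 to 7.78 CPM over all 12 libraries, so that stromal genes such as *Col1a1*, *Col1a2* and *Col3a1* were at or near 0.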

How the data were processed

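QuantSeq 3′ mRNA libraries of Cas9-LPs were compared between stages in the first experiment (12 libraries, 3 in each of 4 groups). The 12 libraries of the second experiment were not analysed here. Per the labels the reads were trimmed with fastp and aligned to mm10 with STAR, and the counting step, its strand setting and versions are not given in the sources used here. The deposited values are named TPM by the authors, but behave as CPM with no length scaling: dividing by the value of 1 read gave whole reads for 100.0% of values within 0.05 read. The 1 line that names no gene was left out. Coordinates come from GENCODE M21 (GRCm38), which held 55227 of 55487 gene identifiers.

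Libraries had 1363263 to 1743319 reads, and intervals and floors cover counting error only. Genes that reached 1 CPM in 3 or more libraries were kept, and log2(CPM + 1) values of the 12 libraries were fitted by group with limma 3.58.1 (trend, R 4.3.3), with Benjamini-Hochberg adjustment over 13239 genes. Fold changes on this scale understate those of low genes. Calls of a stage change needed an adjusted P value below 0.05, group means that differed by more than 1 in log2 ratio, and 1 of both means above 10 CPM. Calls of the interaction, the sgCbfb minus the sgControl change, needed an adjusted P value below 0.05 and 1 of 4 group means above 10 CPM. Genes were named by rule: the 12 highest and 12 lowest sgCbfb changes, the 8 largest in each direction that were called with one sgRNA only and differed, all members of 20 gene lists, and the RUNX genes. The members and lists were chosen with earlier results of these data known. Genes withheld from this work are not reported here and were left out of the lists, though they stay in the fit and in counts over all genes. Genes whose exons overlap those of an antisense gene were treated as uncertain. Promoters came from RefSeq (GRCm38.p6).

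On simulated data with known changes, 176 of 200 changed genes and 2 of 12580 unchanged genes were called for the sgCbfb response. The 176 were 96 of 100 genes at 4-fold and 80 of 100 at 2.5-fold. For the interaction, 142 of 200 and 4 of 12580 were called, with 86 of 100 at 4-fold and 56 of 100 at 2.5-fold. Smaller folds were not tested. These counts were not split by starting level, so they give no detection rate for genes with few or no reads in LPs. They were also not split by whether a gene changed in both responses, so they give no rate for such genes. Alternatives were other pseudocounts, filters, scalings and thresholds, unmoderated variances, a replicate block, smaller fits, each library left out, and edgeR 4.0.16 (quasi-likelihood, TMM) on the recovered reads.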

Additional observations from a re-analysis of the deposited data

Results flagged for a closer look

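The named genes given here were picked out because the change from LPs to Phase 1 cells differed between sgCbfb and sgControl cells by the limma interaction test (Benjamini-Hochberg adjusted P value under 0.05), which held for 59 of them. Each value is the interaction on the log2(CPM + 1) scale, the sgCbfb change minus the sgControl change, so a negative value is a smaller rise, a larger fall or a fall against a rise with sgCbfb compared with sgControl. Groups of 3 libraries were not searched gene by gene for single values far from the others.

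Among T-lineage genes and receptors the values were -3.59 for *Cd247*, -4.61 for *Cd3g*, -1.85 for *Gata3*, -4.38 for *Il2ra*, -2.28 for *Kit*, -2.55 for *Lcp2*, -1.23 for *Myb*, -3.58 for *Tcf7*, -0.95 for *Thy1*, -1.37 for *Trgc4* and -1.91 for *Zfpm1*. Among progenitor genes they were 0.91 for *Ccr9*, 1.69 for *Flt3*, 1.48 for *Hoxa10*, 2.75 for *Hoxa3*, 2.27 for *Hoxa5*, 1.31 for *Hoxa9*, 3.33 for *Igf1*, 1.49 for *Ighm*, 1.51 for *Mef2c*, 2.62 for *Mn1* and -2.72 for *Nfe2*. Genes called with sgCbfb only had -1.08 for *Armcx4*, -1.37 for *Arpp21*, 2.07 for *Bcl11a*, 3.53 for *Cd9*, -1.22 for *Clec12a*, -1.64 for *Cst7*, -1.37 for *Frat2*, 6.06 for *Hpse*, 3.59 for *Htra3*, 1.67 for *Irf8*, -0.87 for *Myl10*, 1.34 for *Nrgn*, -1.41 for *Rgcc*, -3.87 for *Rsad2*, 3.57 for *Spic* and 4.55 for *Stc1*. Genes of innate, interferon, adhesion and other surface lists had 1.77 for *Adgre1*, 2.12 for *Cdh1*, 1.22 for *Cox6a2*, -3.66 for *Gzma*, -3.60 for *Ifitm3*, -3.28 for *Itgae*, -1.17 for *Ly6a*, 2.72 for *Ly6d*, -2.56 for *Rtp4* and -4.02 for *Tnfrsf9*. The other values were -0.85 for *Cbfa2t3*, -3.17 for *Cldn2*, -4.21 for *Cpa3*, 2.46 for *Foxf1*, 1.75 for *Gria2*, 2.02 for *Lamtor3*, 2.53 for *Lrp1*, -3.78 for *Nrp1*, 1.73 for *Runx2*, 3.04 for *Sdc1* and -3.46 for *Sytl3*.

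Of the 59 calls, 17 were made under every alternative, 21 were lost without at least 1 library and 52 were also made by edgeR.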

How the results depend on the processing

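No named gene reversed its direction under any alternative where it was called. With 1 library left out at a time, including those outside a contrast, genes called higher and lower ranged from 73 to 125 and from 34 to 98 with sgCbfb, from 183 to 235 and from 148 to 361 with sgControl, from 52 to 115 and from 52 to 117 for the difference between the responses, and from 33 to 52 and from 21 to 46 for the genes called in both. The lowest and highest counts of falls with sgCbfb came without LP sgCbfb replicate 1 (34) and Phase 1 sgControl replicate 3 (98), those with sgControl without LP sgControl replicate 1 (148) and Phase 1 sgControl replicate 1 (361), and the fewest negative differences without Phase 1 sgCbfb replicate 2 (52). Without moderated variances 31 genes fell with sgCbfb, 147 fell with sgControl, 18 fell in both, and the difference was positive for 32 and negative for 30. With only the 6 sgCbfb libraries in the fit, 111 fell with sgCbfb. Without the fold threshold 120 fell with sgCbfb, 345 rose and 381 fell with sgControl, and 79 rose and 69 fell in both.

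EdgeR on the recovered reads called 111 higher and 82 lower with sgCbfb, 256 and 232 with sgControl, 90 and 92 for the difference and 53 and 43 in both. A total without mitochondrial genes and CT010467.1, an alternative chosen after seeing the data, called 98 and 59 with sgCbfb. Correlations of deviations from the group mean, over 8999 genes, did not settle if the replicate numbers pair the libraries. Same-numbered LP and Phase 1 libraries had 0.004, -0.04 and 0.05 with sgCbfb and 0.038, 0.026 and 0.087 with sgControl. Differently numbered ones had -0.051 to 0.048 with sgCbfb and -0.074 to 0.049 with sgControl. With 3 libraries a group, such values cannot exclude pairing. With the replicate block the counts were 100 and 65 with sgCbfb, 222 and 250 with sgControl, 99 and 82 for the difference and 42 and 32 in both. Of 51 named genes called with sgCbfb, 31 were called under every alternative, 18 were lost without at least 1 library and 50 were called by edgeR. At these depths, genes under about 2 CPM rest on 3 reads or fewer in a library.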
